A study of Mus musculus with 32 samples.

Results

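A set of 10 genes of dendritic cells and Langerhans cells was followed in the bone and gingiva of mice with ligature-induced periodontitis and occlusal overload. They were Cd207, Epcam, Xcr1, Clec9a, Batf3, Cd209a, Siglech, Flt3, Itgax and Ccr7, chosen by name and matched by Ensembl identifier, 10 of the 55359 genes listed in each tissue. Poly(A) RNA was sequenced from male wild type C57BL/6J mice, an inbred laboratory strain, 9 weeks old at treatment. LiTra mice carried a silk ligature round the upper left second molar together with a composite resin build-up on its occlusal surface, Li mice the ligature alone, Tra mice the resin alone, and Co mice were untreated. There were 32 libraries, 4 for every group and tissue. Neither the time after treatment nor whether each library came from its own animal was labelled, so the p-values reflect only how far these libraries vary.

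Dendritic cells take up antigen in tissues, mature, and carry it to lymph nodes, where they present it to T cells. Langerhans cells do this in stratified epithelia, the oral lining included, and are marked by langerin, the product of Cd207. Epcam encodes an adhesion molecule shared by Langerhans cells and by many epithelial cells. Xcr1, a chemokine receptor, Clec9a, a receptor for dead cells, and Batf3, a transcription factor, mark or build the conventional type 1 dendritic cells (cDC1). Cd209a encodes a DC-SIGN family lectin of type 2 dendritic cells (cDC2) and of monocyte-derived cells, and Siglech a sialic acid-binding lectin of plasmacytoid dendritic cells (pDC), the interferon-producing type. Flt3 encodes the receptor for the growth factor of dendritic cells and their progenitors in marrow, Itgax the CD11c integrin chain, also made by macrophages, and Ccr7 the receptor that guides mature dendritic cells to lymph nodes and is also carried by lymphocytes.

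Promoter windows are shown for the 3 genes on which most results turn, Cd207, Itgax and Siglech. They are RefSeq sequences of the GRCm38.p6 build, each 300 bases long, 250 before and 50 from the start of the gene on its own strand, and all of the 10 genes but Ccr7 matched an entry. They lie at chr6:83677808-83678107 on the minus strand for Cd207, and on the plus strand at chr7:128129300-128129599 for Itgax and chr7:55767934-55768233 for Siglech. Capitals mark, on either strand, the AP-1 letters TGANTCA, the PU.1 core letters GAGGAA and the E-box letters CANNTG, and no marked stretches overlapped.
Cd207: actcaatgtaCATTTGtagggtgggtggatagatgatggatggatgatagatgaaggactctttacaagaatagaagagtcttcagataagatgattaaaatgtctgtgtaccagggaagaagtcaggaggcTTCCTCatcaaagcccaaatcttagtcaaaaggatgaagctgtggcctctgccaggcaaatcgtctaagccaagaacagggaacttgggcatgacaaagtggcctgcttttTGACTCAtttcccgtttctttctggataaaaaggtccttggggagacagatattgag
Itgax: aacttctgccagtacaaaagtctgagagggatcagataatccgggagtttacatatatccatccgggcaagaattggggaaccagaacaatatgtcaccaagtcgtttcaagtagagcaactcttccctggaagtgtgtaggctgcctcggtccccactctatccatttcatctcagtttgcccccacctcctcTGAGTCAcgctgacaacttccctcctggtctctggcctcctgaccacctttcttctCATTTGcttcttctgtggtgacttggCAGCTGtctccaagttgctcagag
Siglech: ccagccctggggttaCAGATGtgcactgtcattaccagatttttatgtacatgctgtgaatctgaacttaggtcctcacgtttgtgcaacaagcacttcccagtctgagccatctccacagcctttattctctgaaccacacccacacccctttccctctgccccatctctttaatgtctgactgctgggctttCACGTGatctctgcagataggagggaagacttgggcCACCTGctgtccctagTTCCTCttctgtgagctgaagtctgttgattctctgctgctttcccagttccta
The AP-1 letters stood in the Cd207 and Itgax windows and in 7.81% of all 32851 promoter windows of this length. The PU.1 core letters stood in the Cd207, Siglech and Batf3 windows and in 28.3% of all windows, and E-box letters in all 9 windows and in 72.3% of all. A match is a description of the letters and not a binding site.

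Depth ranged from 38163979 to 70793037 counts per bone library and from 36913075 to 50740393 per gingiva library, and all 10 genes passed the filter on low counts in both tissues. Transcripts of 8 nasal gland genes took up to 49.9% of the counts in LiTra, 24.0% in Li, 21.3% in Tra and 46.7% in Co bone libraries, and at most 1.70% in gingiva. Bone LiTra 1, Tra 3 and Co 3, called the concentrated libraries, had 53.6%, 62.9% and 51.1% of their counts in their top 10 genes, against at most 29.3% in the other 13. Their gland shares were 49.9%, 21.3% and 46.7%, and Li 2, which is not among them, had 24.0%. Haemoglobin transcripts took 0.203% to 0.525% of the counts in LiTra bone and 1.36% to 4.43% in Co bone. The tissue labels were checked on untreated mice, where 27.2% of all genes were called higher and 26.4% lower in bone than in gingiva. All 9 genes of a bone cell list were higher in bone. Of 14 epithelial genes 9 were lower and 5 did not pass. Levels are CPM, the counts of a gene scaled by library size (TMM) as defined in edgeR, as mean ± SD (n = 4 libraries a group). Fold changes are log2 ± SE from edgeR's quasi-likelihood test, and calls were made at 0.05 after Benjamini-Hochberg adjustment over all genes tested. Scaling by library totals alone moved the all-gene median of LiTra against Co by 0.04 in bone and 0.09 in gingiva, and by at most 0.15 in the other comparisons, on the log2 scale. Groups are described as overlapping or not without the share of all genes that separate likewise, so separation adds no support to a call. In whole tissue, fewer cells of a type and less RNA per cell cannot be told apart.

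The first comparison was that of untreated bone with untreated gingiva, to place the genes before treatment. Of the 10 genes, 5 were higher and 1 was lower in bone, where 53.6% of all 22559 genes were called, 27.2% higher and 26.4% lower. Siglech averaged 14.2 ± 2.06 CPM in Co bone and 1.62 ± 0.761 CPM in Co gingiva, a log2 difference of 3.13 ± 0.50 (adjusted p = 7.2e-06). Cd207 went the other way, with 0.338 ± 0.294 CPM in Co bone and 3.16 ± 0.584 CPM in Co gingiva (-3.19 ± 0.56, adjusted p = 2.7e-05). The 4 Cd207 values were 0.682, 0.221, 0 and 0.450 CPM in Co bone, against 2.71, 2.80, 3.14 and 4.0 CPM in Co gingiva, so the tissues did not overlap. Clec9a (2.09 ± 0.41), Flt3 (1.39 ± 0.38), Ccr7 (2.09 ± 0.72) and Cd209a (1.14 ± 0.40) were also higher in bone. The calls of Ccr7 and Cd209a were lost without gingiva Co 1 (1.84 and 1.05, adjusted p = 0.054 for both), and that of Cd209a also with library totals alone (1.24, adjusted p = 0.057). Itgax stood at 10.1 ± 1.91 CPM in Co bone and 10.1 ± 2.81 CPM in Co gingiva, with a 95% interval of the log2 difference of -0.69 to 0.70. Epcam (-1.31 ± 0.85), Xcr1 (-0.80 ± 0.53) and Batf3 (0.19 ± 0.49) did not pass. Epcam was called lower in bone without the 3 concentrated libraries (-2.39, adjusted p = 3.8e-04) or without Co 3 alone (-2.42, adjusted p = 0.032), and with library totals alone (-1.57, adjusted p = 0.046). Co 3 had the highest Epcam value of Co bone (67.0 CPM in this fit), so leaving it out lowers the bone level by construction.

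Levels of different genes were compared per kilobase of exon, taken from the GENCODE M21 annotation of another build. In Co bone Epcam was highest on this scale at 12.0 ± 13.4 CPM per kilobase, with an SD larger than its mean, followed by Cd209a at 5.18 ± 0.894, Siglech at 4.21 ± 0.487, Ccr7 at 2.65 ± 1.12 and Itgax at 2.11 ± 0.338. Clec9a (1.93 ± 0.331), Flt3 (1.86 ± 0.502), Batf3 (0.991 ± 0.367), Cd207 (0.219 ± 0.187) and Xcr1 (0.128 ± 0.0428) followed, and from Ccr7 down to Flt3 each gene lay within 1 SD of the next. In Co gingiva Epcam stood far above the others at 28.7 ± 8.74 CPM per kilobase. Cd209a (2.34 ± 0.466), Itgax (2.1 ± 0.580) and Cd207 (2.07 ± 0.384) came next and lay within 1 SD of each other, and the other 6 genes lay between 0.221 ± 0.127 for Xcr1 and 0.862 ± 0.412 for Batf3.

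**Figure D1:**
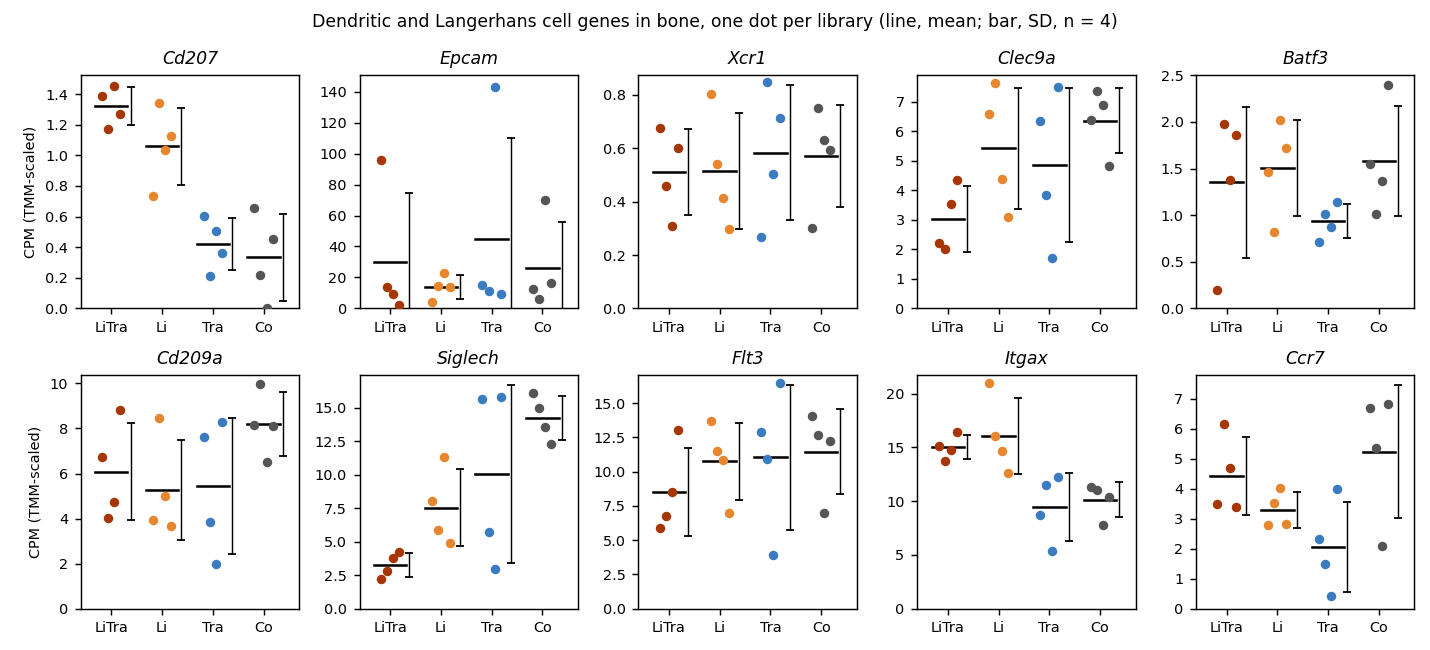
CPM of each of the 10 genes in bone, 1 dot per library, in the LiTra, Li, Tra and Co groups, with the mean as a line and the SD as a bar (n = 4, cut off at 0). The Siglech values of LiTra bone (2.23 to 4.26 CPM) lie below all 4 Co values, and all 8 Cd207 values of LiTra and Li bone lie above all 8 of Tra and Co bone.

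In bone, Siglech was the gene of the 10 with the largest log2 difference between mice with both treatments and untreated mice. Its 4 values were 2.23, 2.79, 3.81 and 4.26 CPM in LiTra bone, 8.07, 5.88, 11.3 and 4.90 CPM in Li bone, 15.7, 5.76, 2.98 and 15.8 CPM in Tra bone, and 16.1, 15, 13.6 and 12.3 CPM in Co bone. LiTra and Li bone each lay wholly below Co bone, while the Tra values split into 2 high and 2 low ones. Siglech fell by 2.12 ± 0.45 on the log2 scale in LiTra against Co bone (adjusted p = 0.0055), and was the 1 gene of the 10 called there, where 16.9% of all genes were called. Against Tra bone it fell by 1.62 ± 0.44 (adjusted p = 0.046), with overlapping groups and 5.56% of all genes called. That second call was lost with no filter on low counts (adjusted p = 0.077) and with the compared groups alone (adjusted p = 0.17), and was kept only without Li 3, Tra 2 or Tra 3 among the 16 fits that left out 1 library. Its values in LiTra against Li (-1.20 ± 0.44, adjusted p = 0.67) and in Li against Co (-0.91 ± 0.43, adjusted p = 0.30) did not pass. With libraries scaled by their totals alone, which leaves the gland share in the scale, the calls of Siglech, Cd207 and Itgax in bone were lost (for Siglech in LiTra against Co, -2.03, adjusted p = 0.25).

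Lists of other markers, chosen with earlier results of these data known, were counted in the same comparison. Of 12 further pDC genes 4 fell, 0 rose and 8 did not pass in LiTra against Co bone, where 16.9% of all genes were called. Their median log2 change was -0.92 beside -0.01 over all genes. The 4 that fell included Spib, a transcription factor of pDC and B cells, at 9.29 ± 3.16 CPM in LiTra and 75.3 ± 16.7 CPM in Co bone (-3.02 ± 0.63, adjusted p = 0.0048), and Tlr9, the receptor for unmethylated DNA (-1.76 ± 0.43, adjusted p = 0.012). Of 9 B cell genes 8 fell, with a summed level of 30.5 to 58.8 CPM in LiTra and 241 to 368 CPM in Co bone, and no gene of that list was at 0 in all libraries of a group. All 8 erythroid genes fell as well. The part of these cell types in the Siglech result was not tested.

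Cd207 was low in bone, and higher in the ligated libraries than in the others. Its values were 1.38, 1.17, 1.45 and 1.27 CPM in LiTra bone and 0.732, 1.34, 1.04 and 1.13 CPM in Li bone. In Tra bone they were 0.601, 0.212, 0.505 and 0.363 CPM, and in Co bone 0.657, 0.220, 0 and 0.457 CPM. Every ligated library lay above every unligated one, while LiTra overlapped Li and Tra overlapped Co. Single group comparisons did not pass with edgeR, at 1.96 ± 0.70 for LiTra against Co (adjusted p = 0.070), 1.64 ± 0.69 for Li against Co (adjusted p = 0.24) and 1.65 ± 0.70 for LiTra against Tra (adjusted p = 0.20). Without the 3 concentrated libraries it was called in LiTra against Co (1.55, adjusted p = 0.037) and in LiTra against Tra (1.73, adjusted p = 0.041), and without Co 3 alone likewise (1.57 and 1.66, adjusted p = 0.030 for both). LiTra against Co was also called with the stricter filter (adjusted p = 0.049), by DESeq2 (adjusted p = 0.0034) and by limma-voom (adjusted p = 0.0050), and LiTra against Tra by DESeq2 (adjusted p = 0.025) and limma-voom (adjusted p = 0.015).

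An averaged ligature effect, the mean of LiTra and Li minus that of Tra and Co, was added after these values were seen and uses the same libraries. In bone it called Cd207 and Itgax higher and Siglech lower, where 14.8% of all genes were called, 8.41% higher and 6.41% lower. With library totals alone 139 genes were called and 68.3% of them were higher, against 56.7% with TMM. Cd207 rose by 1.65 ± 0.49 (adjusted p = 0.036), higher in 8 of 8 ligated libraries. Of the fits that left out 1 library, 10 of 16 lost the call, with adjusted p up to 0.073, and only those without LiTra 1, Li 1, Tra 1, Tra 3, Co 1 or Co 3 kept it. It was lost with no filter on low counts (adjusted p = 0.059) and with the replicate block (1.78, adjusted p = 0.052). Siglech fell by 1.27 ± 0.31 (adjusted p = 0.013) and kept its call in all 16.

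Itgax rose by 0.66 ± 0.16 in the averaged ligature effect in bone (adjusted p = 0.012) and was called in all 16 fits without 1 library. Its values were 15.1, 13.7, 14.7 and 16.5 CPM in LiTra bone and 21.0, 16, 14.6 and 12.6 CPM in Li bone, against 8.71, 11.5, 5.37 and 12.2 CPM in Tra bone and 11.3, 11.1, 7.78 and 10.4 CPM in Co bone. All 8 ligated libraries lay above all 8 unligated ones, but the averaged effect was added after these values were seen and uses them. Neither LiTra against Co (0.57 ± 0.23, adjusted p = 0.11) nor LiTra against Tra (0.66 ± 0.23, adjusted p = 0.11) passed alone in edgeR's fit to all 16 bone libraries. LiTra against Co was called without Tra 3 (0.57, adjusted p = 0.035), with the compared groups alone (adjusted p = 0.026) and by limma-voom (adjusted p = 0.023), and LiTra against Tra by DESeq2 (adjusted p = 0.032) and limma-voom (adjusted p = 0.039). In the averaged ligature effect 8.41% of all genes were called higher and 6.41% lower. Of 14 macrophage and monocyte genes, cells that also carry CD11c, 1 rose and 2 fell under it. The summed level of that list was 1198 to 2048 CPM in LiTra and 1692 to 2840 CPM in Li bone, against 1238 to 2557 CPM in Tra and 2365 to 3040 CPM in Co bone, with no gene at 0 in all libraries of a group, and its part in the Itgax result was not tested.

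The cDC1 genes did not pass in bone in edgeR's fit to all 16 libraries. Clec9a had 2.23, 2.02, 3.54 and 4.37 CPM in LiTra bone and 6.37, 7.35, 6.89 and 4.84 CPM in Co bone. The groups did not overlap, but the log2 change of -1.06 ± 0.41 missed the threshold (adjusted p = 0.095). It was called without Tra 3 (adjusted p = 0.033), with the compared groups alone (adjusted p = 0.032), by DESeq2 (adjusted p = 0.042) and by limma-voom (adjusted p = 0.016). Xcr1 lay between 0.267 and 0.847 CPM in all 16 bone libraries, and its LiTra against Co interval ran from -1.13 to 0.81. Batf3 averaged 1.35 ± 0.809 CPM in LiTra and 1.58 ± 0.586 CPM in Co bone (-0.22 ± 0.51), with the concentrated library LiTra 1 lowest at 0.203 CPM.

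Of the remaining genes, Cd209a averaged 6.08 ± 2.16 CPM in LiTra, 5.26 ± 2.2 in Li, 5.43 ± 3.02 in Tra and 8.19 ± 1.42 in Co bone, and was not called. Flt3 averaged 8.54 ± 3.20 CPM in LiTra, 10.8 ± 2.79 in Li, 11 ± 5.28 in Tra and 11.5 ± 3.10 in Co bone, with overlap throughout. Ccr7 was lowest in Tra bone, at 2.34, 1.48, 0.413 and 3.99 CPM, against 6.69, 5.35, 2.07 and 6.81 CPM in Co bone (-1.34 ± 0.51, adjusted p = 0.46). Its averaged ligature effect was 0.21 ± 0.36, and limma-voom called it in LiTra against Tra bone (1.14, adjusted p = 0.047). Tra 3, a concentrated library, was the lowest of Tra bone for Cd209a (1.97 CPM), Flt3 (3.90 CPM) and Ccr7. The same held for Siglech, Itgax and Clec9a (1.70 CPM).

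Epcam in bone was highest in the 3 concentrated libraries, 1 each of LiTra, Tra and Co. It reached 95.9 CPM in LiTra 1, 143 CPM in Tra 3 and 70.1 CPM in Co 3, and lay between 2.44 and 23.1 CPM in the other 13 bone libraries. Li 2, with a larger gland share than Tra 3, had 14.6 CPM. Epcam was called in no bone comparison, and its part as a Langerhans cell gene cannot be told apart from epithelial and gland RNA here.

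**Figure D2:**
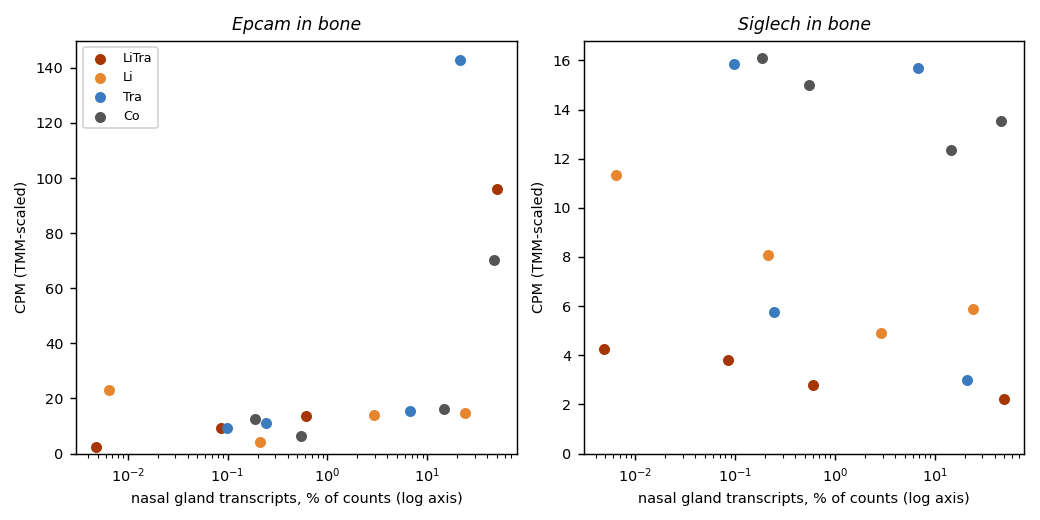
CPM of Epcam (left) and Siglech (right) in the 16 bone libraries against the share of counts taken by 8 nasal gland genes, in percent on a log axis, coloured by group. Epcam exceeds 70 CPM only in the 3 concentrated libraries. Siglech is lowest of its group in LiTra 1 (2.23 CPM) and in Tra 3 (2.98 CPM). In Co bone it stays between 12.3 and 16.1 CPM at gland shares of 0.188% to 46.7%, with 13.6 CPM in Co 3.

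**Figure D3:**
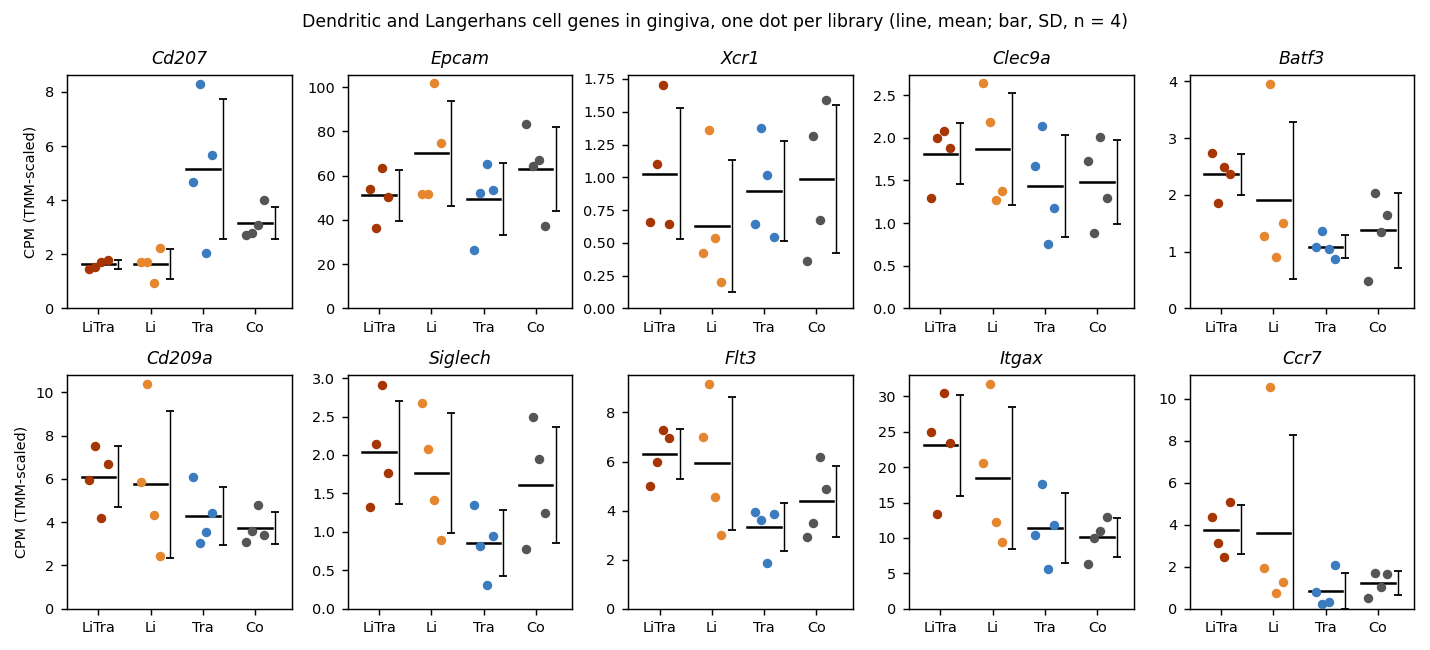
CPM of each of the 10 genes in gingiva, drawn as in the plot for bone. The Cd207 values of LiTra gingiva (1.44 to 1.79 CPM) lie below every Tra and Co value, and 1 Li library stands apart for Ccr7 at 10.6 CPM.

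In gingiva, where Langerhans cells reside, Cd207 was lower with the ligature. Its values were 1.44, 1.54, 1.73 and 1.79 CPM in LiTra gingiva and 1.72, 1.70, 0.927 and 2.24 CPM in Li gingiva. In Tra gingiva they were 4.65, 8.27, 2.04 and 5.68 CPM, and in Co gingiva 2.72, 2.80, 3.09 and 3.99 CPM. LiTra lay wholly below both Tra and Co, and Li lay wholly below Co. Cd207 fell by 1.66 ± 0.35 in LiTra against Tra gingiva (adjusted p = 0.0056), the 1 gene of the 10 called there, where 18.8% of all genes were called. LiTra against Co (-0.95 ± 0.35, adjusted p = 0.061) and Li against Co (-0.93 ± 0.35, adjusted p = 0.11) did not pass with edgeR. The first of these was called without Tra 2 (adjusted p = 0.046) or Tra 3 (adjusted p = 0.021), with the compared groups alone (adjusted p = 0.012) and by DESeq2 (adjusted p = 0.036).

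The averaged ligature effect in gingiva called Itgax, Ccr7 and Flt3 higher and Cd207 lower, where 26% of all genes were called, 13.7% higher and 12.3% lower. Of the genes called, 68.4% were higher with library totals alone, against 52.8% with TMM. Cd207 fell by 1.30 ± 0.25 (adjusted p = 0.0016) and was called in every alternative run, those without 1 library included. The other Langerhans cell gene, Epcam, averaged 51.1 ± 11.3 CPM in LiTra, 70.0 ± 23.8 in Li, 49.3 ± 16.3 in Tra and 63.0 ± 19.2 in Co gingiva, with an averaged ligature effect of 0.10 ± 0.21 and a 95% interval of -0.34 to 0.55. Of 14 epithelial genes, 1 rose and 6 fell in LiTra against Co gingiva, where 22.9% of all genes were called. The riser was Krt14 (0.78 ± 0.14, adjusted p = 0.0016), while Krt13 (-1.25 ± 0.35, adjusted p = 0.018) and Krt76 (-1.74 ± 0.47, adjusted p = 0.017) were among those that fell. The summed level of the 14 genes was 42070 to 56068 CPM in LiTra gingiva and 38251 to 84414 CPM in Li gingiva, against 88890 to 110285 CPM in Tra gingiva and 72080 to 90401 CPM in Co gingiva. The part of the epithelium in the Cd207 result was not tested.

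Itgax was higher in ligated gingiva. Its values were 24.9, 13.3, 30.5 and 23.4 CPM in LiTra gingiva and 20.5, 31.7, 12.3 and 9.40 CPM in Li gingiva, against 10.5, 17.7, 5.56 and 11.9 CPM in Tra gingiva and 6.31, 10.1, 11 and 13.0 CPM in Co gingiva. LiTra lay wholly above Co but overlapped Tra. Itgax rose by 1.19 ± 0.40 in LiTra against Co (adjusted p = 0.041), the 1 gene of the 10 called, where 22.9% of all genes were called. That call was lost with no filter on low counts (adjusted p = 0.065), and without LiTra 1, 3 or 4 or any 1 of the 4 Co libraries (adjusted p up to 0.11). In the averaged ligature effect it rose by 0.95 ± 0.28 (adjusted p = 0.021), a call kept in all 16 fits without 1 library. Of 14 macrophage and monocyte genes 8 rose and 0 fell in LiTra against Co gingiva, with a summed level of 766 to 1161 CPM in LiTra and 305 to 383 CPM in Co, and no gene of that list was at 0 in all libraries of a group. The part of macrophages in the Itgax result was not tested.

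Ccr7 had 4.36, 3.13, 2.49 and 5.11 CPM in LiTra gingiva, 1.92, 10.6, 0.757 and 1.29 CPM in Li gingiva, 0.788, 0.215, 0.326 and 2.1 CPM in Tra gingiva, and 0.510, 1.70, 1.03 and 1.67 CPM in Co gingiva. All 4 LiTra values lay above all Tra and Co values, while 3 of the 4 Li values lay within their range. In the averaged ligature effect Ccr7 rose by 1.85 ± 0.56 (adjusted p = 0.024), but without Li 2 the change was 1.12 and not called (adjusted p = 0.081). Single comparisons of Ccr7 did not pass with edgeR, at 1.62 ± 0.79 in LiTra against Co (adjusted p = 0.16) and 2.14 ± 0.81 in LiTra against Tra (adjusted p = 0.077). LiTra against Co was called by limma-voom (1.78, adjusted p = 0.020) and with the compared groups alone (adjusted p = 0.014).

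Flt3 had 5.02, 5.98, 7.29 and 6.97 CPM in LiTra gingiva and 6.99, 9.17, 4.54 and 3.0 CPM in Li gingiva. In Tra gingiva it had 3.94, 3.6, 1.87 and 3.86 CPM, and in Co gingiva 2.91, 3.50, 6.18 and 4.89 CPM. LiTra lay above Tra with no overlap but overlapped Co. The averaged ligature effect of 0.68 ± 0.24 was called (adjusted p = 0.046), and 12 of the 16 fits without 1 library lost it (adjusted p up to 0.11), all but those without LiTra 1, Li 3, Li 4 or Co 3. It was also lost with limma-voom (0.53, adjusted p = 0.11), with no filter on low counts (adjusted p = 0.073) and with the replicate block (0.67, adjusted p = 0.084).

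The 5 genes Batf3, Cd209a, Siglech, Clec9a and Xcr1 did not pass in gingiva in any comparison of edgeR's fit to all 16 libraries. The averaged ligature effects were 0.79 ± 0.32 for Batf3 (adjusted p = 0.079), 0.57 ± 0.25 for Cd209a (adjusted p = 0.11), 0.69 ± 0.33 for Siglech (adjusted p = 0.14), 0.34 ± 0.25 for Clec9a and -0.22 ± 0.41 for Xcr1. Batf3 averaged 2.36 ± 0.367 CPM in LiTra and 1.38 ± 0.658 CPM in Co gingiva, and Siglech 2.03 ± 0.675 CPM in LiTra and 1.61 ± 0.756 CPM in Co gingiva. In the averaged ligature effect Batf3 was called without Li 3 (0.92, adjusted p = 0.037) and Cd209a without Li 4 (0.71, adjusted p = 0.026). In LiTra against Tra gingiva, Siglech (1.25 ± 0.47, adjusted p = 0.077), Batf3 (1.11 ± 0.45, adjusted p = 0.096), Flt3 (0.93 ± 0.34, adjusted p = 0.068) and Itgax (1.02 ± 0.39, adjusted p = 0.084) also missed the threshold. Leaving out Li 2 called Batf3, Flt3 and Ccr7 there (adjusted p = 0.040, 0.048 and 0.024), Li 4 Flt3 (adjusted p = 0.044), Tra 2 Itgax (adjusted p = 0.042) and Tra 4 Ccr7 (adjusted p = 0.030). In the same comparison DESeq2 called Siglech (adjusted p = 0.041), Flt3 (0.034), Itgax (0.038) and Ccr7 (0.021), and limma-voom called Batf3 (adjusted p = 0.045), Flt3 (0.032), Itgax (0.030) and Ccr7 (0.017). With the compared groups alone Batf3 was called there (adjusted p = 0.015), as were Flt3 (0.036) and Ccr7 (0.047), and Cd209a was called in LiTra against Co gingiva (0.72, adjusted p = 0.044).

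**Figure D4:**
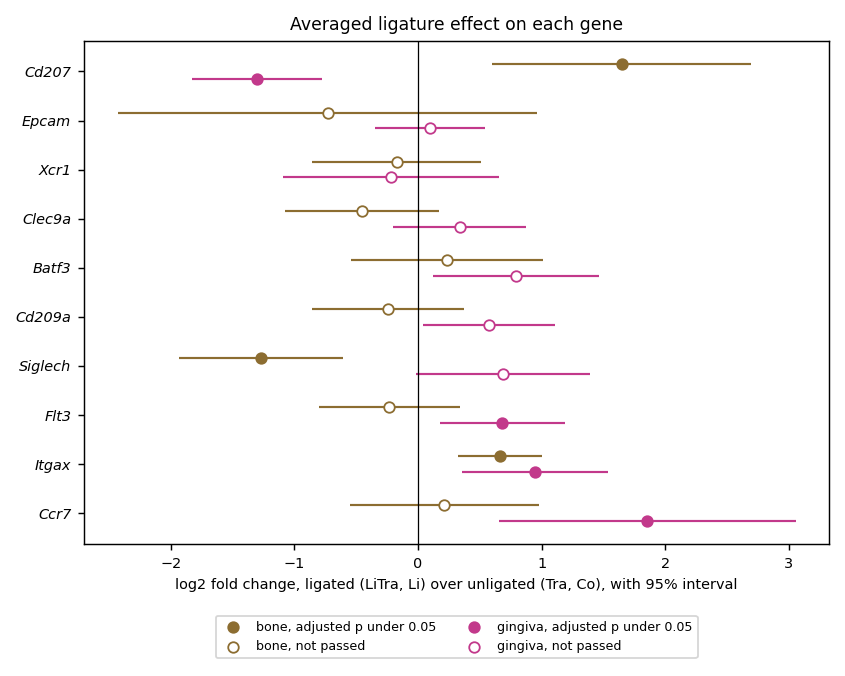
Averaged ligature effect on each of the 10 genes in bone and gingiva, as log2 fold change of ligated (LiTra, Li) over unligated (Tra, Co) libraries with its 95% interval, filled where the adjusted p was under 0.05. Cd207 lies at 1.65 in bone and -1.30 in gingiva, and Siglech at -1.27 in bone and 0.69 in gingiva.

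The 2 tissues were then set against each other in 1 fit of all 32 libraries, with bone and gingiva libraries of the same group and number taken as independent. The effect of both treatments on Cd207 was 2.89 ± 0.74 higher in bone than in gingiva on the log2 scale (adjusted p = 0.011), and that on Siglech 2.44 ± 0.66 lower (-2.44, adjusted p = 0.016). These were the 2 of the 10 genes called, 1 in each direction, where 12.3% of all genes were called, 5.59% higher and 6.68% lower. For the averaged ligature effect the differences were 2.96 ± 0.53 for Cd207 (adjusted p = 7.2e-04) and -1.94 ± 0.47 for Siglech (adjusted p = 0.0069), again 1 gene in each direction, where 12.5% of all genes were called, 5.75% higher and 6.75% lower (of those called, 22.7% higher with library totals alone, against 46% with TMM). These 2 tests share their LiTra and Co libraries. With library totals alone, the combined-effect differences of Cd207 (2.69, adjusted p = 0.14) and Siglech (-2.45, adjusted p = 0.18) and the averaged-ligature difference of Siglech (-2.01, adjusted p = 0.083) were not called. Itgax, higher with the ligature in both tissues, had a difference of -0.26 ± 0.34 with a 95% interval of -0.96 to 0.43. Ccr7 (-1.63 ± 0.69, adjusted p = 0.13) and Flt3 (-0.90 ± 0.38, adjusted p = 0.12) did not pass. Ccr7 was called without gingiva Tra 4 (-2.11, adjusted p = 0.040), and Flt3 without bone Tra 3 (-1.04, adjusted p = 0.031) or without all 3 concentrated libraries (-1.08, adjusted p = 0.022). For the ligature alone 0 of the 10 differences passed in edgeR's fit to all 32 libraries (3 at an unadjusted p under 0.05, 1 by DESeq2). In that fit 2.04% of all genes were called, and Cd207 came closest at 2.55 ± 0.74 (adjusted p = 0.064). It was called without bone Tra 3 (adjusted p = 0.0496), Co 1 (adjusted p = 0.028) or Co 3 (adjusted p = 0.038), or without the 3 concentrated libraries (2.16, adjusted p = 0.026).

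No gene of the 10 passed the test for the overload alone. In Tra against Co, edgeR called 0 of the 10 in bone (1 at an unadjusted p under 0.05) and 0 in gingiva (0 at an unadjusted p under 0.05), and DESeq2 and limma-voom called 0 in either tissue. Over all genes edgeR also called 0, a share of 0% in each tissue, with 2023 genes in bone and 1323 in gingiva at an unadjusted p under 0.05, 156 and 88 by DESeq2 and 0 and 4 by limma-voom. Added to the ligature, it likewise gave 0 of 10 called in LiTra against Li, with 1 at an unadjusted p under 0.05 in bone and 0 in gingiva, and 0 by DESeq2 or limma-voom. All-gene shares there were 0% in bone and 0.0844% in gingiva with edgeR, while DESeq2 called 106 and 1430 genes and limma-voom 1 and 860. The averaged overload effect and the interaction of the treatments called 0 of 10 with all 3 tools in both tissues, with 1 gene at an unadjusted p under 0.05 in bone and 0 in gingiva for each with edgeR. Over all genes edgeR called 0 (0%) for both. For the averaged overload effect, 729 genes in bone and 712 in gingiva were called by DESeq2, and 762 and 60 by limma-voom. The interaction had 8 genes in bone and 183 in gingiva by DESeq2, and 0 in either by limma-voom. Cd207 averaged 5.16 ± 2.58 CPM in Tra gingiva and 3.15 ± 0.584 CPM in Co gingiva, and the log2 change of 0.71 had a 95% interval of -0.02 to 1.44.

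The ligature alone gave 0 of 10 calls in Li against Co in edgeR's fit to all 16 libraries of either tissue. In each tissue 2 genes were at an unadjusted p under 0.05, Cd207 and Itgax. All-gene shares were 3.51% in bone and 7.49% in gingiva. DESeq2 called Cd207 (1.62, adjusted p = 0.035) and Itgax (0.65, adjusted p = 0.040) in bone and limma-voom Itgax (0.56, adjusted p = 0.037), while both called 0 in gingiva. Without Tra 3, whose omission changes only the shared spread and scaling, edgeR called Itgax in bone (0.65, adjusted p = 0.048). Li, Tra and LiTra were each set against the same Co libraries.

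**Figure D5:**
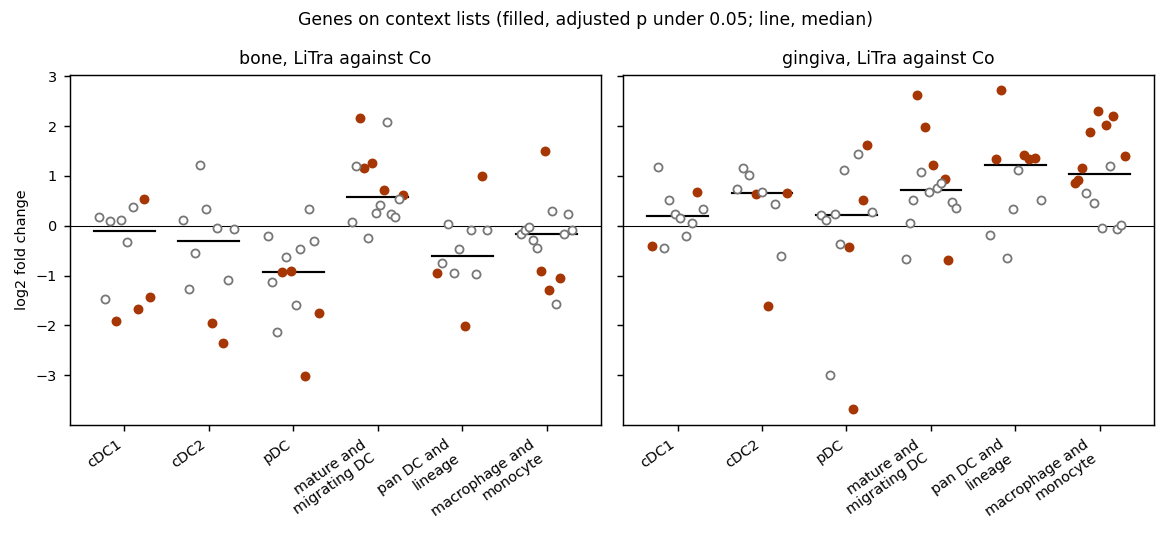
Log2 fold changes of LiTra against Co for the genes of 6 context lists in bone (left) and gingiva (right), 1 dot per gene, filled where the adjusted p was under 0.05, with the list median as a line. The median of the mature and migrating dendritic cell list lies above 0 in both tissues (0.58 and 0.72), and that of the pDC list at -0.92 in bone and 0.22 in gingiva.

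Further lists named after these cell types were read, chosen by function with earlier results of these data known. Other cells of a whole tissue can express many of their genes. In Co bone the pDC list summed to a median of 330 CPM, beside 14.2 CPM for Siglech. Cxcl12 alone averaged 718 CPM there, where the list of growth factors, receptors and chemokines summed to a median of 1483 CPM. Counts on these lists in bone therefore cannot be read as changes of dendritic cells. In LiTra against Co bone, where 16.9% of all genes were called, of 10 cDC1 genes 1 rose and 3 fell (median -0.11), and of 10 cDC2 genes 0 rose and 2 fell (median -0.30). The falling genes included Irf8, the lineage factor of cDC1 that B cells and monocytes also use (-1.91 ± 0.40, adjusted p = 0.0049), and Irf4, its counterpart in cDC2, plasma cells and T cells (-1.95 ± 0.42, adjusted p = 0.0061). Of 14 genes of mature and migrating dendritic cells 5 rose and 0 fell, among them Cd274, the checkpoint ligand PD-L1 (1.16 ± 0.27, adjusted p = 0.0092), and Socs2, a cytokine signalling inhibitor (0.63 ± 0.12, adjusted p = 0.0026). Of 10 pan dendritic cell genes 1 rose and 2 fell (median -0.60). Of 14 tested growth factor, receptor and chemokine genes 1 rose and 3 fell (median -0.75): Flt3l, the ligand of Flt3, had 9.03 ± 2.25 CPM in LiTra and 16.1 ± 2.71 CPM in Co bone (-0.83 ± 0.19, adjusted p = 0.0084), and Cxcl12, a marrow niche chemokine, fell by 1.69 ± 0.30 (adjusted p = 0.0019). With library totals alone the calls of Spib, Tlr9, Irf8, Irf4, Cd274, Socs2, Flt3l and Cxcl12 in bone were lost (adjusted p = 0.12 to 0.72), in the same directions.

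The same lists were counted in LiTra against Co gingiva, where 22.9% of all genes were called. Klf4 of the cDC2 list alone averaged 256 ± 42.1 CPM in Co gingiva, where that list summed to a median of 328 CPM. The pDC list summed to a median of 1091 CPM there, beside 1.61 CPM for Siglech. Counts on these lists in gingiva, as in bone, therefore cannot be read as changes of dendritic cells, nor can their differences between the tissues. Of 10 cDC1 genes 1 rose and 1 fell (median 0.20), of 9 tested cDC2 genes 2 rose and 1 fell (median 0.67), and of 12 pDC genes 2 rose and 2 fell (median 0.22), beside a median of -0.01 over all genes. Of 14 mature and migrating dendritic cell genes 4 rose and 1 fell: Cd274 had 25.1 ± 5.02 CPM in LiTra and 4.08 ± 2.97 CPM in Co gingiva (2.62 ± 0.55, adjusted p = 0.0041), and the costimulatory gene Cd80 rose by 1.98 ± 0.47 (adjusted p = 0.0081). Of 10 pan dendritic cell genes 5 rose and 0 fell (median 1.22), with Clec4a2, an inhibitory lectin of myeloid cells, at 14.6 ± 3.82 CPM in LiTra and 2.22 ± 0.621 CPM in Co gingiva (2.72 ± 0.32, adjusted p = 2.3e-04). Of 16 growth factor, receptor and chemokine genes 4 rose and 1 fell (median 0.80), among them Csf1r, the receptor for CSF1 and IL-34 on which Langerhans cells and macrophages depend (1.94 ± 0.25, adjusted p = 2.9e-04), and Csf2rb, the shared chain of the GM-CSF receptor (2.16 ± 0.42, adjusted p = 0.0027). For the effect of both treatments in bone minus that in gingiva, where 5.59% of all genes were called higher and 6.68% lower, 0 genes were called higher and 4 lower of 10 pan dendritic cell genes, 1 and 3 of 12 pDC genes, 0 and 4 of 10 cDC1 genes, 1 and 4 of 10 cDC2 genes and 0 and 0 of 14 mature and migrating dendritic cell genes.

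The lists of other cells were counted in LiTra against Co, beside the same shares of all genes (16.9% in bone and 22.9% in gingiva). In bone 0 of 14 epithelial genes were called, 1 of 14 macrophage genes rose and 3 fell, 0 of 9 neutrophil genes rose and 4 fell, 0 of 10 T and NK cell genes rose and 6 fell, 1 of 8 progenitor genes rose and 2 fell, 3 of 9 bone cell genes rose and 1 fell, and 0 of 7 tested nasal gland genes were called. In gingiva 3 of 9 neutrophil genes rose and 0 fell, 0 of 6 tested B cell genes rose and 1 fell, 0 of 9 tested T and NK cell genes and 0 of 8 erythroid genes were called, 2 of 8 progenitor genes rose and 1 fell, 3 of 9 bone cell genes rose and 3 fell, and 0 of 8 nasal gland genes rose and 2 fell.

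The genes most like each of the 10 were taken by Pearson's r of log2 CPM over the 16 libraries of a tissue, among 13982 genes in bone and 13955 in gingiva, as a description, since all points share the 4 groups and the libraries' makeup. In bone, Clec9a varied most like Gcsam (r = 0.95), itself on the cDC1 list, and Clec1b (0.95) and Gp6 (0.94), which are platelet and megakaryocyte receptors. Flt3 varied most like the cell division genes Cks1b (0.97), Ckap2l (0.96) and Nuf2 (0.96). Itgax lay closest to Cd244a (0.94), and Epcam to Rassf10 (0.97) and Wwc1 (0.96). Cd207 lay closest to Eef1akmt1 (0.89), and Siglech to C530008M17Rik (0.93). In gingiva, Ccr7 lay closest to Ms4a4c (0.90), Relb (0.89), the NF-kappaB subunit of mature dendritic cells, and Socs1 (0.89). Itgax lay closest to Ptafr (0.96), the receptor for platelet-activating factor, Flt3 to Ikzf1 (0.92) and the class II gene H2-Aa (0.91), and Cd207 to Stac (0.86). The best r for Xcr1 was 0.72 in bone (Rnf214) and 0.81 in gingiva (Slamf7).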

How the data were processed

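The authors deposited 1 table of estimated counts per tissue, given as whole numbers, with 16 libraries each. Per the submitters' processing notes, Trimmomatic 0.39, FastQC 0.11.9, HISAT2 2.2.1, StringTie 2.1.7, DESeq2 1.32.0 and the GRCm39 build were used, while settings, the counting step and strand were not given in the sources used here. Columns named CR and LiCR were read as the Tra and LiTra groups of the labels. Gene symbols matched 52083 of the 55359 identifiers.

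Genes were filtered with filterByExpr (minimum count 10, minimum total 15), leaving 21205 in bone, 20143 in gingiva and 22559 in a joint fit, and scaled by TMM. The fit was edgeR 4.0.16's quasi-likelihood test in R 4.3.3, two-sided, with all 16 libraries of a tissue (all 32 for the tissue comparisons) and Benjamini-Hochberg adjustment over all genes. A run on simulated counts drew all libraries from 1 mean profile apart from set changes. It lacked the uneven gland shares of bone and so cannot vouch for the calls there. Alternatives were DESeq2 1.42.0, limma-voom (limma 3.58.1), other scalings and filters, the compared groups alone, a replicate block, and leaving out libraries. The averaged ligature and overload effects, and the tissue difference of the first, were added after the values were seen. The members and the 15 context lists (161 genes) were chosen with earlier results of these data known. Named were all 10 members, up to 3 genes per list with the smallest p in LiTra against Co, of which some are printed, and the 3 genes most like each member (mean log2 CPM of at least 1, prior count 2), of which some are printed. Bone and gingiva titles share group and number, but no label says that such libraries came from 1 mouse. The main fit of 32 libraries took them as independent. Deviations of same-numbered libraries correlated over 0.1 across groups in 5 of 24 pairs in bone and 4 of 24 in gingiva. Between bone and gingiva of 1 group and number this held in 1 of 16 pairs. The median r of same-numbered pairs was -0.085 in bone (highest 0.545), 0.011 in gingiva (highest 0.153) and 0.028 between the tissues (highest 0.180). Pairs of other numbers had medians of 0.026, -0.0083 and -0.0072. No 2 libraries were identical.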

Additional observations from a re-analysis of the deposited data

Results flagged for a closer look

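In 5 of the 80 groups of 4 libraries examined (10 genes in 8 groups), 1 library stood far from the other 3, where chance alone flags about 1 in 20 groups. For Epcam in bone these were LiTra 1 at 95.9 CPM, Tra 3 at 143 CPM and Co 3 at 70.1 CPM, the 3 bone libraries with the largest shares of counts in their top 10 genes. Nasal gland transcripts took 49.9%, 21.3% and 46.7% of the counts in them, and 24.0% in Li 2, where Epcam had 14.6 CPM. In gingiva, Flt3 was low in Tra 3 at 1.87 CPM, and Ccr7 was high in Li 2 at 10.6 CPM. The effect of both treatments differed between bone and gingiva, tested as a difference, for Cd207 (2.89) and Siglech (-2.44), as did the averaged ligature effect (2.96 for Cd207 and -1.94 for Siglech, all log2, bone minus gingiva).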

How the results depend on the processing

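No call changed direction under any alternative run. Of the 10 genes, LiTra against Co bone called 1, against 0 with library totals alone, 2 with the stricter filter, 3 with DESeq2, 4 with limma-voom, 3 with the compared groups alone, 2 without the 3 concentrated libraries and 1 to 3 leaving out 1 library. LiTra against Tra bone called 1, against 0 with library totals, no filter or the compared groups alone, 3 with DESeq2, 4 with limma-voom, 2 without the concentrated libraries and 0 to 1 leaving out 1 library. Li against Co bone called 0, against 2 with DESeq2, 1 with limma-voom and 0 to 1 leaving out 1 library. The averaged ligature effect in bone called 3, against 0 with library totals and 2 to 3 leaving out 1 library. LiTra against Co gingiva called 1, against 0 with no filter, 2 with DESeq2, 2 with limma-voom, 4 with the compared groups alone and 0 to 2 leaving out 1 library. LiTra against Tra gingiva called 1, against 3 with library totals, 5 with DESeq2, 5 with limma-voom, 4 with the compared groups alone and 1 to 4 leaving out 1 library. The averaged ligature effect in gingiva called 4, and 2 to 5 leaving out 1 library. Between tissues, the combined effect called 2, against 0 with library totals and 2 leaving out any 1 library, the averaged ligature effect 2, against 1 with library totals and 2 to 3 leaving out 1 library, the ligature effect 0, against 1 with DESeq2, 1 without the concentrated libraries and 0 to 1 leaving out 1 library, and the untreated tissues 6, against 4 to 7. The numbers called over all genes also moved between these settings, so the counts of the 10 genes alone do not set them apart. The cause was not tested.

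Same-numbered libraries of different groups shared only a number. With the replicate block, LiTra against Tra bone and LiTra against Co gingiva each called 0 of the 10 (Siglech -1.55, adjusted p = 0.10, and Itgax 1.24, adjusted p = 0.052), and the averaged ligature effect lost Cd207 in bone (1.78, adjusted p = 0.052) and Flt3 in gingiva (0.67, adjusted p = 0.084). It ended no other call of the 10 genes. In 4 of 16 bone and 1 of 16 gingiva libraries the best correlation across groups was with their own number. Between the tissues, within a group, it was so for 6 of 16 bone libraries. Over all genes, Li against Co bone called 745, against 5 with library totals, 410 with no filter, 398 with the compared groups alone, 1890 with DESeq2, 1827 with limma-voom and 1775 without the concentrated libraries. LiTra against Co bone called 3589, against 12 with library totals, 4964 with DESeq2, 6874 with limma-voom and 4284 with the compared groups alone. In the same order, LiTra against Tra bone called 1179, against 5, 2410, 3514 and 438. LiTra against Co gingiva called 4608, against 4652, 5619, 5953 and 5342, and LiTra against Tra gingiva 3787, against 4357, 4884, 4610 and 3734. LiTra against Li gingiva called 17, against 0 to 1430. The stricter filter left out Xcr1 in bone. Cd207 and Xcr1 lay at or below 1.45 CPM in all 16 bone libraries, which limits their precision.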
